A study of Homo sapiens with 8 samples.

Results

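The SSX and VCX genes are cancer-testis antigen genes of chromosome X, and 9 of them, *SSX1*, *SSX2*, *SSX3*, *SSX4*, *SSX5*, *SSX7*, *VCX*, *VCX2* and *VCX3A*, were followed across 8 arrays. They were selected on their rise with 5-aza-2'-deoxycytidine (5-aza-dC) in the control clones of these same arrays, and their probes are those that are not controls and carry 1 of the 9 gene names. Of the 9 genes, 6 had such a probe, out of 34423 gene names on the array, and they had 10 probes of 50599 distinct ones: 8 SSX probes and 2 *VCX2* probes. The other 3 genes, *SSX4*, *VCX* and *VCX3A*, had no probe under their own name. The *SSX4* accessions are listed on the probes named *SSX4B*, and those of *VCX* and *VCX3A* on 1 of the *VCX2* probes.

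The study asked whether depletion of *TET1*, which oxidizes 5-methylcytosine, alters the response of colorectal cancer cells to 5-aza-dC, an inhibitor of DNA methyltransferases. All arrays came from HCT116, an established colorectal cancer line, grown as stable G418-selected clones. The control clones CONT1 and CONT2 carried the pcDNA6.2-GW/EmGFP-miR-neg plasmid. TET1-KD1 and TET1-KD2 each carried a different *TET1* knockdown vector of the same plasmid type, so each microRNA was represented by 1 clone. Every clone was measured without drug and following 72 h in 1 µM 5-aza-dC, with medium and drug renewed daily, which gives 2 clones in each of 4 conditions: untreated control, treated control, untreated knockdown and treated knockdown. The titles give these conditions, while a separate treatment field names mock for all control arrays and 5-aza-dC for all knockdown arrays. The p-values therefore measure the spread between 2 clones.

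SSX proteins are nuclear corepressors that are normally made in the testis, and fusion of *SS18* to an SSX gene by translocation defines synovial sarcoma. VCX proteins are small, highly charged proteins of male germ cells. Genes of both families are silent in most somatic tissues, where their promoters are commonly methylated, and they are well known for being re-expressed in tumour cells when DNA methylation is lost.

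Levels are log2 scaled intensities: each array was scaled to its 75th percentile, which lay between 395.5 and 623.7 before scaling, and between 46.7 and 54.9% of probes were above background. Both treated control arrays were on a slide of their own, scanned 230 days after the slide with the other 6 arrays, so slide and treatment cannot be told apart in the control clones. Signals of the spike-in control RNAs were between 0.02 and 1 log2 units lower on that slide. The knockdown clones had all 4 arrays on 1 slide. The *TET1* probe A_33_P3295550 read 9.70 and 9.75 in untreated CONT1 and CONT2 and 8.65 and 9.41 in TET1-KD1 and TET1-KD2. After 5-aza-dC it read 9.64 and 9.64 in CONT1 and CONT2 and 8.99 and 9.48 in TET1-KD1 and TET1-KD2. On all 3 *TET1* probes both untreated knockdown clones were below both control clones, with TET1-KD1 the lower of the knockdown clones, and the untreated differences of -0.69, -0.98 and -2.14 had a limma adjusted p of 0.63 each. The -2.14 came from A_23_P322756, which was above background on 2 of 8 arrays, while the other *TET1* probes were above it on all 8. Of 7 colorectal epithelial markers 6 were tested, with 0 called by limma after 5-aza-dC in the knockdown clones (1 at an unadjusted p below 0.05, and 0 by the methods' t-test). *EPCAM*, an epithelial adhesion protein, was lower by a log2 change of -0.89 (limma adjusted p 0.04995) after 5-aza-dC in the control clones. Over all probes limma called 6.18% in either direction in the knockdown clones and 46.2% in the control clones. *VIL1*, of the intestinal brush border, was not above background on both arrays of any condition.

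The probes show how far the genes can be told apart. Members of the SSX family share long runs of sequence, and the following 60-base probes are printed because their likeness limits which gene a value belongs to. All positions are those the files give on hg19. The *SSX2* probe lay at chrX:52787003-52787062, the *SSX7* probe A_23_P396115 at chrX:52674574-52677350, a span longer than the probe, and the *SSX5* probe at chrX:48049580-48049639. Capitals in the first pair mark a run of 27 bases shared by the *SSX2* and *SSX7* probes, and capitals in the *SSX5* probe mark the 13-base run that it shares with the *SSX2* probe.
SSX2 A_24_P256243: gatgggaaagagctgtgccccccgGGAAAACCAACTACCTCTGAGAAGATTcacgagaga
SSX7 A_23_P396115: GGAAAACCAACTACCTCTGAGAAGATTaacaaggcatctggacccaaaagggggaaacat
SSX5 A_23_P84359: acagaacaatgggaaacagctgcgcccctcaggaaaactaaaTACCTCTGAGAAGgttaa

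In the aligned stretch the *SSX2* and *SSX7* probes had 32 of 36 bases identical (88.9%). A second *SSX7* probe, A_23_P374226 at chrX:52679425-52681333, had 52 of 57 bases identical (91.2%) with a probe of *SSX8*, a gene that RefSeq now lists as the pseudogene *SSX8P*. Capitals mark their longest shared run, of 28 bases.
SSX7 A_23_P374226: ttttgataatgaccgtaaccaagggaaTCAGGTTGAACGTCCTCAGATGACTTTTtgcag
SSX8 A_21_P0013844: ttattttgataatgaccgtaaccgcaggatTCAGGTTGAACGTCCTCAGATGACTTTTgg

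The array's own annotation lists accessions of *SSX2*, *SSX2B* and *SSX3* on both the *SSX2* probe A_23_P252023 and the *SSX3* probe A_33_P3396635. It lists *SSX3* alone on A_23_P114134. A value of an SSX probe is thus that of the named gene and any relative it binds. The *VCX2* probes differ in the same way: A_32_P33083 at chrX:8138102-8138161 holds the same 12-base run 2 times, and A_24_P230282 at chrX:8138354-8138605 holds 7 AAG triplets and lists *VCX*, *VCX2*, *VCX3A* and *VCX3B*. Capitals mark the repeated run in the first and the AAG triplets in the second.
VCX2 A_32_P33083: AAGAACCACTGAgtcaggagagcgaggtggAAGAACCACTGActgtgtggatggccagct
VCX2 A_24_P230282: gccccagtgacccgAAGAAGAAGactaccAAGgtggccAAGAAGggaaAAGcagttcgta

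The promoters, taken as the 250 bases before each RefSeq start on GRCh38.p14, were compared because the drug acts on DNA methylation and the SSX genes moved together. Entries of 11 SSX and VCX genes matched, 7 SSX and 4 VCX, out of 35116 promoters of 27305 genes. *SSX3* is named only. A run of 27 bases was present in all 7 SSX promoters and in no promoter of another gene, ending between 52 bases (*SSX7*) and 173 bases (*SSX2B*) before the start. In *SSX1* it read in the orientation opposite to that in the other 6. Capitals mark the run.
SSX1 promoter, chrX:48255142-48255391, plus strand: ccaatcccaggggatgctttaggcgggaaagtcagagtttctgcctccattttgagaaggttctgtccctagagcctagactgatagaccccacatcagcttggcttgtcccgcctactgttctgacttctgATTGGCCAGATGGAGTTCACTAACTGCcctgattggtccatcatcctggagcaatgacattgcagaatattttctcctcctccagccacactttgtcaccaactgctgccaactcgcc
SSX2 promoter, chrX:52707228-52707477, minus strand: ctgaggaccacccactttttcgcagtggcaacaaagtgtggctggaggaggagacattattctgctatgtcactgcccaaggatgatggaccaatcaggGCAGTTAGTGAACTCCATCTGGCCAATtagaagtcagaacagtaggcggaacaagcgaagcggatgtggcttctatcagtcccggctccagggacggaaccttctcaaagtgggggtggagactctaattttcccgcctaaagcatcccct
SSX7 promoter, chrX:52654901-52655150, minus strand: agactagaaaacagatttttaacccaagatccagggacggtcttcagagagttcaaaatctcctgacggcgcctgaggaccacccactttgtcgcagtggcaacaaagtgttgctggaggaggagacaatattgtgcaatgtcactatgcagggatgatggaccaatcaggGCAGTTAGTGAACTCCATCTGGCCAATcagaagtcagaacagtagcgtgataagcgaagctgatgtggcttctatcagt
The run holds 1 CCAAT motif, counted on both strands. Because all 7 SSX promoters hold the run, CCAAT had to stand in 7 of 7 of them, and they are relatives of one another. It stood in 1 of 4 VCX promoters and in 32% of all promoters. The copies *SSX2* and *SSX2B* were identical over the whole of the aligned bases. The number of CG dinucleotides was 3 to 11 in the SSX promoters and 1 to 10 in the VCX promoters, beside a median of 11 over all promoters, and the ratio of observed to expected CG was 0.189 for *SSX1*, 0.409 for *SSX2* and 0.356 for *VCX2*, beside a median of 0.558. The *VCX2* promoter is shown with its 3 CG in capitals, since *VCX2* had the largest fitted mean changes in the knockdown clones.
VCX2 promoter, chrX:8171268-8171517, minus strand: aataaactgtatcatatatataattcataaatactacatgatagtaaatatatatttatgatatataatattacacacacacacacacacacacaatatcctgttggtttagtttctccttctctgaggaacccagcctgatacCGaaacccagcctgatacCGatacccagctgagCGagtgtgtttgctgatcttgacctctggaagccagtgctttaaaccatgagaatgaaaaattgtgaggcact
These letters say nothing of which factor binds there or whether the CG were methylated in these cells.

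Before treatment the genes were at or near the background of the arrays. Of the 10 probes, 2 and 3 were above background in untreated CONT1 and CONT2, and 3 and 2 in TET1-KD1 and TET1-KD2. After 5-aza-dC, 10 and 8 were above background in CONT1 and CONT2, and 10 in each of the knockdown clones. The probes above background on every array were *SSX2* A_24_P256243 and *SSX3* A_33_P3396635. All 10 passed the filter for testing, which asked for signal above background in both clones of any 1 condition: 8 passed through the treated control arrays, and *SSX2* A_23_P252023 and *SSX7* A_23_P396115 passed only through the treated knockdown arrays. Those 2 had to be high there to be tested at all, so their rise in the knockdown clones supports nothing. In bulk RNA, fewer expressing cells and less RNA per cell cannot be told apart.

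**Figure D1:**
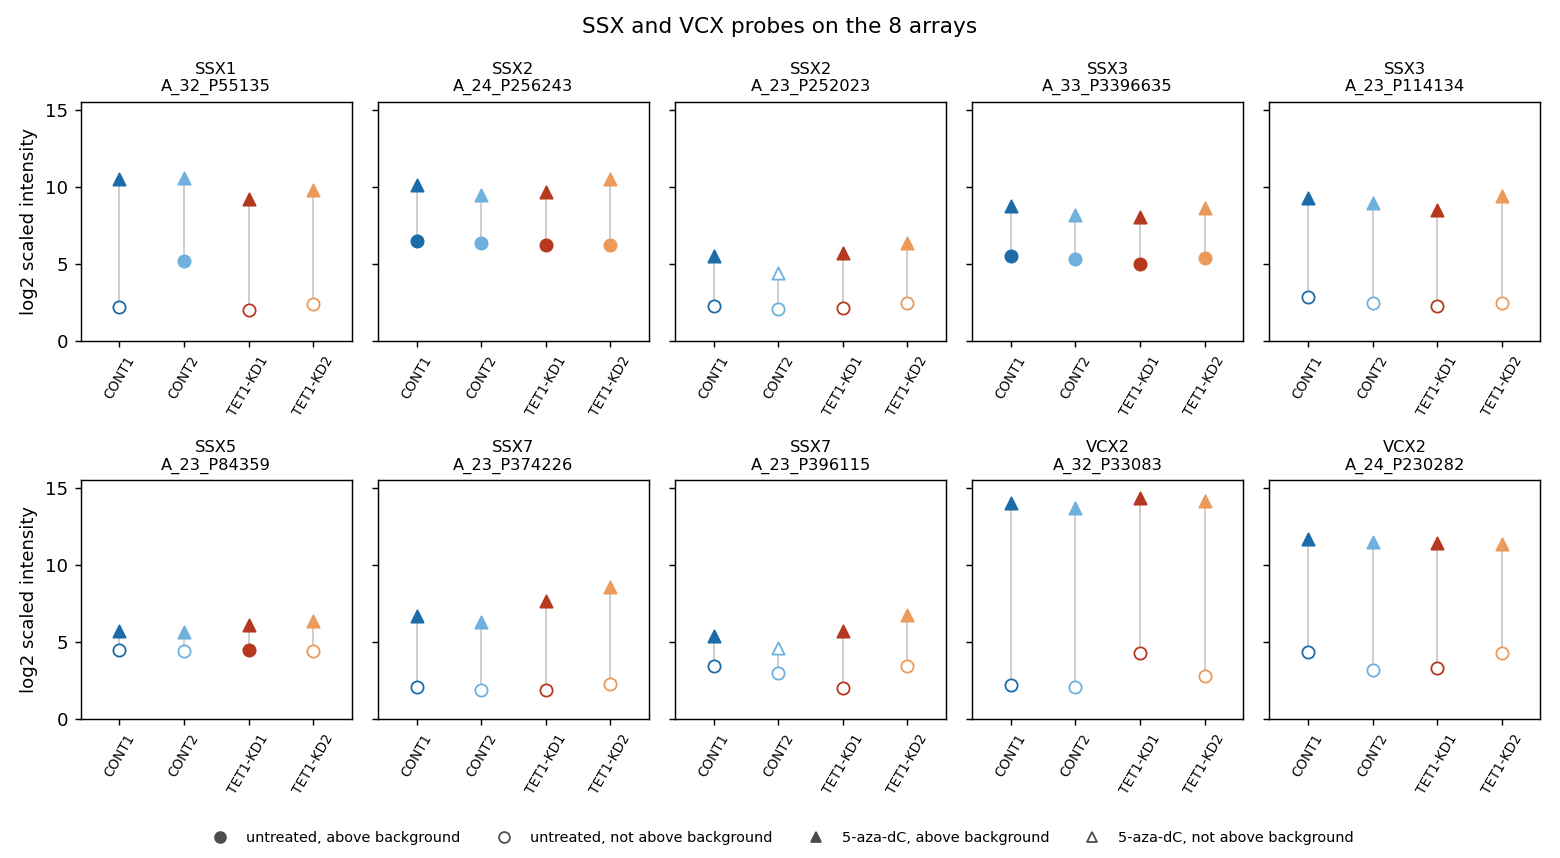
Log2 scaled intensity (y axis) of the 10 SSX and VCX probes, 1 panel each, in the 4 clones (x axis), untreated (circles) and after 5-aza-dC (triangles), with open symbols where the probe was not above background. Every treated value lies above every untreated value of its probe, for example 5.65 to 6.39 after treatment on *SSX5* and 13.67 to 14.35 on *VCX2* A_32_P33083.

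*SSX1*, 1 of the usual fusion partners of *SS18* in synovial sarcoma, read 2.22 and 5.18 in CONT1 and CONT2 and 2.03 and 2.40 in TET1-KD1 and TET1-KD2 without drug. With 5-aza-dC it read 10.47, 10.57, 9.22 and 9.77 in the same order. The only untreated array with *SSX1* above background was CONT2, and no treated value overlapped an untreated one. In the knockdown clones the mean went from 2.22 to 9.49, which is at least 33.8-fold, with a limma log2 change of 7.28 (SE 0.29, n = 2 clones) and an adjusted p of 0.00308. A bound of this kind sets the treated mean against the lowest signal that counted as above background on each untreated array, or the probe's own signal where higher. In the control clones 1 of 2 untreated arrays measured the gene, and in that clone, CONT2, *SSX1* rose by 5.39 on the log2 scale.

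*SSX2*, the other usual fusion partner of *SS18*, was above background without drug on 1 of its probes. Probe A_24_P256243 read 6.45 and 6.37 in CONT1 and CONT2 and 6.23 and 6.25 in TET1-KD1 and TET1-KD2, and 10.11, 9.47, 9.67 and 10.51 after 5-aza-dC. The untreated arrays were close to each other, and all treated values lay above them. The knockdown clones rose 14.4-fold, with a log2 change of 3.85 (SE 0.33, limma adjusted p 0.009169), and the control clones 10.4-fold. The second probe, A_23_P252023 at chrX:52782287-52782346, was above background on no untreated array, reading 2.26, 2.08, 2.11 and 2.45. It read 5.54 and 4.43 in the treated control clones, of which CONT2 was not above background, and 5.71 and 6.37 in the treated knockdown clones. Its knockdown rise was at least 3.08-fold (mean 2.28 to 6.04, log2 change 3.76, limma adjusted p 0.008131).

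*SSX3* was represented by a probe of its own and by a shared one. The probe that lists *SSX3* alone, A_23_P114134 at chrX:48213460-48213519 with 10 spots per array, read 2.85 and 2.45 in CONT1 and CONT2 and 2.26 and 2.47 in TET1-KD1 and TET1-KD2, and 9.26, 8.97, 8.52 and 9.39 after 5-aza-dC. It was below background on all untreated arrays and above on all treated ones. In the knockdown clones it rose at least 23.2-fold (mean 2.37 to 8.95), with a log2 change of 6.59 (SE 0.35, limma adjusted p 0.003501). The shared probe, A_33_P3396635, read 5.53, 5.34, 4.99 and 5.40 without drug and 8.75, 8.14, 8.03 and 8.63 with it, an 8.77-fold rise in the knockdown clones (log2 change 3.13, SE 0.30, limma adjusted p 0.01196). The 2 probes of *SSX3* thus gave changes in the same direction and of different size.

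*SSX5* had the smallest fitted change of the 6 genes in the knockdown clones, on its 1 probe. It read 4.51 and 4.42 in CONT1 and CONT2 and 4.51 and 4.44 in TET1-KD1 and TET1-KD2 without drug, and 5.70, 5.65, 6.13 and 6.39 with it. Only TET1-KD1 had it above background without drug, and both treated knockdown clones lay above both treated control clones. The log2 change in the knockdown clones, where 1 of 2 untreated arrays measured the gene, was 1.79 (SE 0.20, limma adjusted p 0.01668). This call was lost when untreated TET1-KD1 (adjusted p 0.07933), untreated TET1-KD2 (0.08642) or treated TET1-KD2 (0.08127) was left out.

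*SSX7* was measured by a pair of probes that gave different sizes. A_23_P374226 read 2.08 and 1.90 in CONT1 and CONT2 and 1.92 and 2.28 in TET1-KD1 and TET1-KD2, and 6.71, 6.29, 7.68 and 8.56 after 5-aza-dC. It was above background on all treated arrays and no untreated one. The knockdown rise was at least 13-fold (mean 2.10 to 8.12, log2 change 6.02, SE 0.37, limma adjusted p 0.004509). A_23_P396115 read 3.44, 3.01, 2.04 and 3.44 without drug and 5.42, 4.59, 5.74 and 6.78 with it, of which treated CONT2 was not above background. Its log2 change of 3.52 in the knockdown clones (mean 2.74 to 6.26, SE 0.62) missed the threshold, with a limma adjusted p of 0.05693, and passed it with the clone as a block (adjusted p 0.005075).

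*VCX2*, which encodes a charged protein of male germ cells, had the largest fitted mean changes of the 10 probes in the knockdown clones, over untreated values that were not above background on either probe. A_32_P33083 read 2.25 and 2.09 in CONT1 and CONT2 and 4.32 and 2.79 in TET1-KD1 and TET1-KD2, and 14.02, 13.67, 14.35 and 14.14 after 5-aza-dC. No untreated array had it above background, and the treated arrays of both kinds of clone lay close together, far above the untreated ones. The mean of the knockdown clones went from 3.56 to 14.25, at least 879-fold, with a log2 change of 10.69 (SE 0.55, limma adjusted p 0.003501). A_24_P230282, the probe shared with *VCX*, *VCX3A* and *VCX3B*, read 4.37, 3.21, 3.32 and 4.32 without drug and 11.71, 11.47, 11.44 and 11.38 with it. It rose at least 127-fold in the knockdown clones (mean 3.82 to 11.41, log2 change 7.59, SE 0.38, limma adjusted p 0.003411).

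*SSX4* and its near-identical copy *SSX4B* were seen through 3 probes named *SSX4B*. A_23_P33881 read 2.62 and 2.14 in CONT1 and CONT2 and 2.32 and 2.52 in TET1-KD1 and TET1-KD2, and 10.03, 9.83, 9.81 and 10.29 after 5-aza-dC. The 3 probes rose by 7.63, 5.90 and 6.87 on the log2 scale in the knockdown clones, with limma adjusted p-values of 0.00308, 0.003501 and 0.00308, which is at least 49.6-, 21.8- and 27.6-fold. The 2 probes of *SSX8* rose by 4.98 (adjusted p 0.003501) and 6.23 (0.003246).

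The genes were selected on the control clones, but with earlier results of these data known, so the knockdown counts are a description. In the knockdown clones 9 of the 10 probes were called higher by limma, and at least 1 probe of each of the 6 genes. The 9 include *SSX2* A_23_P252023, which passed the filter only through the treated knockdown arrays. All 8 probes that passed it through the treated control arrays were called. Of all 27287 probes tested, 5.91% were called higher there. The log2 changes of the 10 probes ran from 1.79 to 10.69 with a median of 4.93, and the median over all tested probes was -0.07. The methods' t-test on the same arrays, with each probe's own variance, gave 9 of 10 at an unadjusted p below 0.05, beside 4500 of all 27287 probes, and 0 after Benjamini-Hochberg adjustment, where it called 0 of all probes.

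The rise in the control clones is what the genes were selected on and is given as a description. All 10 probes were called higher, and 21.7% of all probes were. The log2 changes were 6.82 for *SSX1*, 3.38 and 2.82 for *SSX2*, 6.46 and 3.01 for *SSX3*, 1.21 for *SSX5*, 4.51 and 1.78 for *SSX7*, and 11.68 and 7.80 for *VCX2*. *SSX2* A_23_P252023 and *SSX7* A_23_P396115 lost the call when untreated CONT1 (adjusted p 0.06142 and 0.07172) or untreated CONT2 (0.06756 and 0.1029) was left out. The median over the 10 was 3.95, against -0.08 over all tested probes. As a bound, *VCX2* rose at least 739-fold on A_32_P33083 and at least 155-fold on A_24_P230282 (means 2.17 to 13.85 and 3.79 to 11.59).

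**Figure D2:**
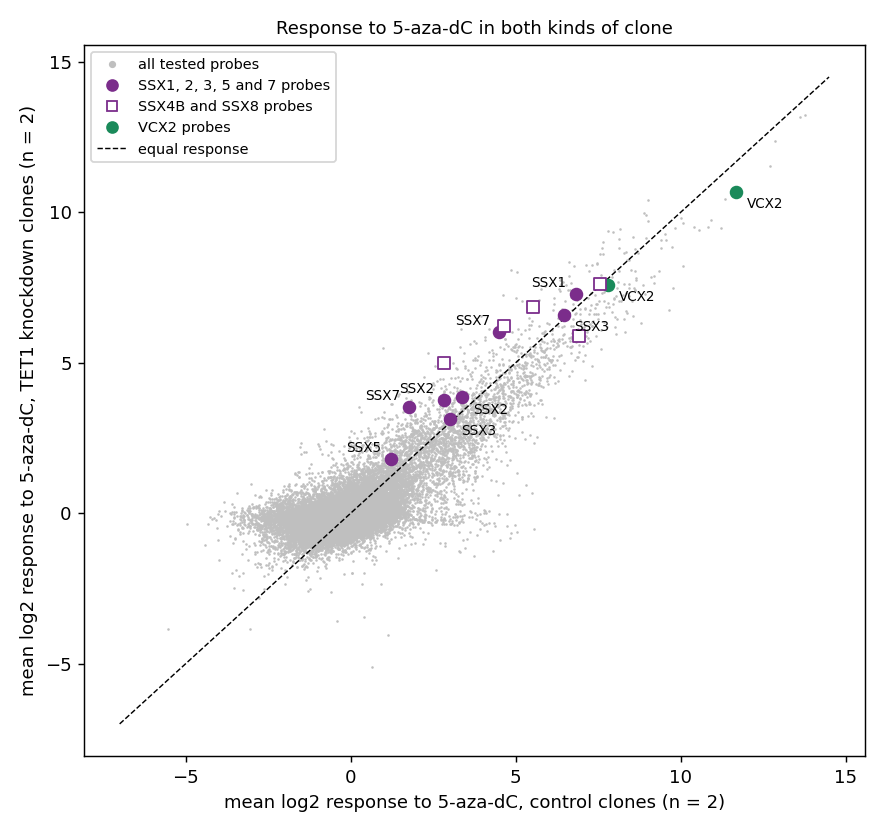
Mean log2 response to 5-aza-dC in the control clones (x axis) and in the *TET1* knockdown clones (y axis), n = 2 clones each, for all tested probes (grey), the SSX probes, the SSX4B and SSX8 probes and the VCX2 probes; the dashed line marks equal responses. Under this scaling all 8 SSX probes lie above the line and both VCX2 probes below it, with VCX2 A_32_P33083 at 11.68 and 10.69. SSX1, SSX3 and VCX2 probes cross it under other scalings. SSX2 A_23_P252023 and SSX7 A_23_P396115 were tested only because they were high in the treated knockdown arrays, so their place supports nothing. Of the 5911 probes called higher in the control clones, 17.4% lie above the line.

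The response of the knockdown clones was set against that of the control clones, also as a description, since the control arrays selected the genes. Without drug, the differences between knockdown and control clones ran from -1.49 for *SSX1* to 1.39 for *VCX2* A_32_P33083, with 5 above 0 and 5 below. Limma called 0 of the 10 and 0% of all probes there, at an unadjusted p below 0.05 it gave 0 of 10 and 2050 of all 27287, and the methods' t-test called 0 of 10 and 1 of all probes after adjustment. For the difference in response, limma called 0 of the 10, beside 5.57% of all probes in either direction. At an unadjusted p below 0.05 limma and the methods' t-test each gave 2 of 10, beside 6742 and 6300 of all 27287 probes, and after adjustment the methods' t-test called 0 of 10 and 1050 of all probes.

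By clone, the log2 rise of *SSX7* on A_23_P374226 was 4.64 and 4.38 in CONT1 and CONT2 and 5.75 and 6.28 in TET1-KD1 and TET1-KD2. The rise was thus larger in both knockdown clones, by 1.51 (SE 0.46, limma adjusted p 0.114). On the other *SSX7* probe the rises were 1.98, 1.58, 3.69 and 3.34, a difference of 1.74 (SE 0.81, adjusted p 0.2469), which passed the threshold with the clone as a block (adjusted p 0.04657). That probe was tested only because it was high in the treated knockdown arrays and was not above background on any untreated array, so this difference supports nothing. For *SSX5* the rises of 1.19, 1.23, 1.62 and 1.96 differed by 0.58 (SE 0.22, adjusted p 0.1723).

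Of the *SSX8* probes, 1 resembles an *SSX7* probe. That one, A_21_P0013844, differed by 1.58 (limma adjusted p 0.05484), and passed the threshold with the clone as a block (0.04533), under quantile normalization (0.03941), with the offset (0.03888) and on the spike-in scale (0.02865). The other, A_23_P431923, differed by 2.15 (adjusted p 0.2365), with untreated CONT1 at 5.59 and treated levels that differed by 0.11. For *SSX1* the rises were 8.25, 5.39, 7.19 and 7.36, so the control clones stood farther apart than the knockdown clones did. *VCX2* A_32_P33083 rose by 11.77 and 11.58 in CONT1 and CONT2 and 10.02 and 11.35 in TET1-KD1 and TET1-KD2, a difference of -0.99 (SE 0.66, adjusted p 0.4045).

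Of the 5911 probes called higher in the control clones, 1026 (17.4%) had a larger mean response in the knockdown clones under the 75th percentile scaling. Under that scaling the mean knockdown response was above the mean control response on 8 of 8 SSX probes and on 0 of 2 *VCX2* probes. The SSX probes include *SSX2* A_23_P252023 and *SSX7* A_23_P396115, tested only because they were high in the treated knockdown arrays. Their differences in response support nothing under any scaling. Other scalings turned the sign of the difference for *SSX1*, *SSX3* and *VCX2*. On all but *SSX2* A_24_P256243 and *SSX3* A_33_P3396635 most or all untreated values were not above background, so these differences describe fitted values. The treated levels alone were lower in the knockdown clones for *SSX1*, by a log2 difference of -1.03, and for *SSX3*, by -0.12 and -0.16, and higher for *SSX2* (0.30 and 1.06), *SSX5* (0.59) and *SSX7* (1.62 and 1.26). For *VCX2* the treated levels differed by 0.4 on A_32_P33083 and by -0.18 on A_24_P230282. The sign of the difference in response held under 5 ways of scaling for *SSX2* (0.35 to 0.60 and 0.42 to 1.53), *SSX5* (0.16 to 0.76) and *SSX7* (1.02 to 1.79 and 0.41 to 2.11). It turned for *SSX1* and for *SSX3* A_23_P114134 under normexp and under an offset of 50, for *SSX3* A_33_P3396635 under quantile normalization and normexp, for *VCX2* A_32_P33083 under normexp and the offset, and for *VCX2* A_24_P230282 under interpolation to the spike-ins. That interpolation also moved the median difference of all probes from 0.05 to 0.27. Slide and treatment of the control clones cannot be told apart in these differences.

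**Figure D3:**
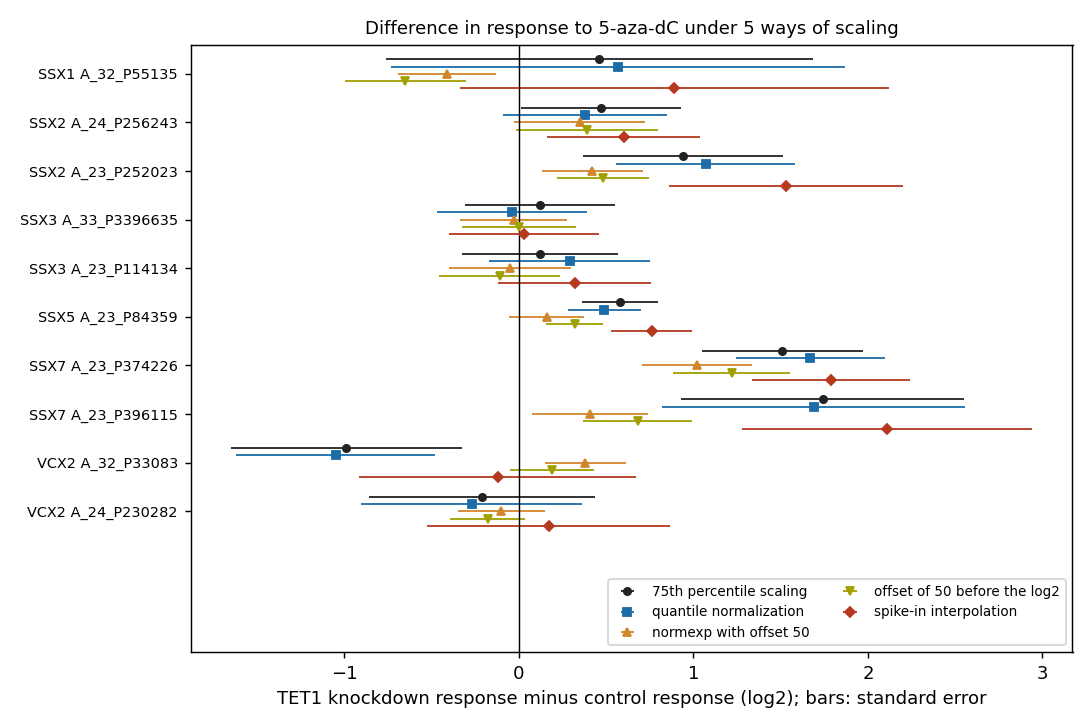
Difference between the mean log2 responses of knockdown and control clones (x axis) for each of the 10 probes (y axis), under 5 scalings (symbols), with the standard error under each scaling as bars. The SSX2, SSX5 and SSX7 probes stay above 0 under every scaling, and SSX1, SSX3 and VCX2 probes fall on both sides. SSX2 A_23_P252023 and SSX7 A_23_P396115 were tested only because they were high in the treated knockdown arrays, so their sign supports nothing.

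Among the treated arrays, TET1-KD2 was above TET1-KD1 on 8 of the 10 probes, which were all 8 SSX probes. Treated CONT2 was above treated CONT1 on 1 of 10. The share of all tested probes is not given for these treated levels, so nothing is read from the counts. The response was larger in TET1-KD2 than in TET1-KD1 on 8 of 10 probes, beside 975 of the 1614 probes (60.4%) called higher in the knockdown clones. With 1 clone of each microRNA, clone and microRNA cannot be told apart.

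The SSX probes lie between 48049580 and 48213519 and between 52674574 and 52787062 on chromosome X (hg19), and the probes around the members were followed to see how far along the chromosome the rise went. Within 500 kb of a member probe the array had 71 other probes, of which 46 were tested. The 5 that belong to *SSX4B* and *SSX8* were all called higher in the knockdown clones. Of the other 41, limma called 4 higher and 2 lower, beside 5.91% and 0.268% of all tested probes. The changes of the 41 ran from -1.67 to 13.16. The 4 higher ones belonged to other cancer-testis genes and to a zinc finger gene: *XAGE1A*, 433.4 kb away, rose by 13.16 (adjusted p 0.00308), *XAGE5*, 55.2 kb away, by 2.86 (adjusted p 0.03052), and *ZNF630*, 132 and 131.4 kb away, by 2.21 (adjusted p 0.02543) and 1.90 (adjusted p 0.04975). Both lower ones belonged to *SUV39H1*, a histone H3 lysine 9 methyltransferase, which changed by -1.67 (adjusted p 0.03942) and -1.34 (adjusted p 0.04558). The transcript XLOC_l2_015722, 26.1 kb from a member probe, changed by -0.06 in the knockdown clones and was not called. In the control clones it changed by -1.85 (limma adjusted p 0.004016), and its response differed by 1.79 (adjusted p 0.01589). By brightest probe, limma called 10 of 34 neighbour genes higher and 10 lower in the control clones, *SSX4B* and *SSX8* being among the 34. Of all tested probes, 21.7% were called higher and 24.5% lower there.

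**Figure D4:**
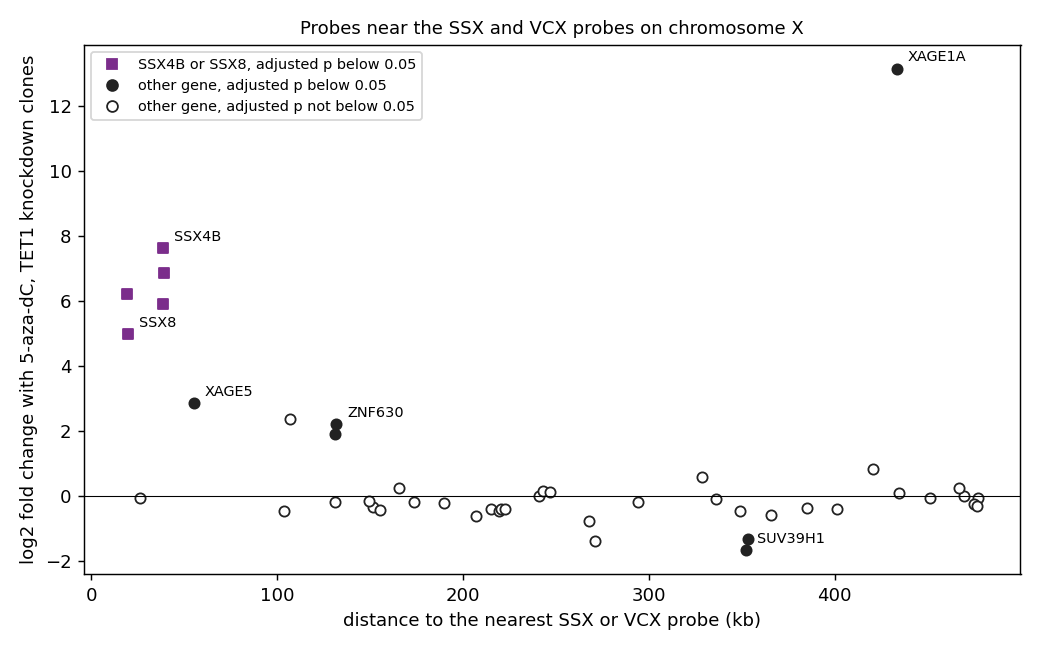
Log2 response to 5-aza-dC in the knockdown clones (y axis) against the distance in kb to the nearest SSX or VCX probe (x axis) for the 46 tested probes within 500 kb, with called probes marked. Of the 41 probes of other genes 4 were called higher and 2 lower, beside 5.91% and 0.268% of all tested probes. XAGE1A, at 433.4 kb, reaches 13.16.

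Genes whose products are tied to SSX or VCX proteins were followed as a list. Of 15 such genes, among them *SS18*, the SSX-interacting *SSX2IP* and *RAB3IP*, Polycomb and SWI/SNF subunits and the decapping factors *DCP1A* and *DCP2*, 14 were tested. Limma called 0 in the knockdown clones, where 1 had an unadjusted p below 0.05 and the methods' t-test called 0, and the median log2 change was -0.22, beside 6.18% of all probes called in either direction. In the control clones 1 was called higher, *RAB3IP* (0.64), and 3 lower, *DCP1A*, *SMARCC1* and *SS18L2*, beside 46.2% of all probes called in either direction. Of the 4 genes of the DNA methylation machinery, the targets of the drug among them, limma called 0 in the knockdown clones, where 2 had an unadjusted p below 0.05 and the methods' t-test called 0 (median log2 change -0.21). In the control clones *DNMT1*, the maintenance methyltransferase, rose by 0.74 (adjusted p 0.01991) and *DNMT3A*, a de novo methyltransferase, by 0.89 (adjusted p 0.01213). The response of *DNMT1* differed between the kinds of clone by -1.27, lower in the knockdown clones (adjusted p 0.02601).

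Other male germ cell genes rose with the family in part. Of 9 such genes 7 were tested and 4 were called higher in the knockdown clones, beside 5.91% of all probes: *DAZL*, an RNA-binding translation regulator, by 7.56 (limma adjusted p 0.003411), *SYCP3*, of the synaptonemal complex, by 6.96 (adjusted p 0.00308), *DDX4*, an RNA helicase, by 4.99 (adjusted p 0.004406) and *BOLL*, a relative of *DAZL*, by 4.06 (adjusted p 0.00942). *SYCP1* (0.68), *ACR* (0.32) and *PRM2* (-0.23) were not called, and *PRM1* and *TNP1* were not tested. Markers of another cell type also moved: of 3 fibroblast markers tested, *THY1* was called higher in the knockdown clones (6.39, adjusted p 0.009051). In the control clones all 3 were called higher, beside 21.7% of all probes. The summed scaled intensity of the 5 fibroblast markers was 346 to 438 in untreated and 1030 to 1340 in treated knockdown clones, and 342 to 372 and 1470 to 1750 in the control clones. Of the fibroblast collagens, *COL1A1* was above background on 8 of 8 arrays, with a log2 change of 0.75 (adjusted p 0.2307) in the knockdown and 0.99 (adjusted p 0.03489) in the control clones, and *COL1A2* and *COL3A1* were above it on 0 of 8, and the T cell marker *CD3E* on 1 of 8. The part of other cells in the result was not tested. The sum of the 7 epithelial markers was 327000 to 360000 in untreated and 387000 to 396000 in treated knockdown clones. In the control clones it was 340000 to 347000 untreated and 328000 to 358000 treated.

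The mean log2 level of the 6 genes, each by its brightest probe, was 3.84 and 4.22 in CONT1 and CONT2 and 4 and 3.93 in TET1-KD1 and TET1-KD2, and 9.29, 8.97, 9.18 and 9.67 after 5-aza-dC. The 5 genes of 16404 whose levels over the 8 arrays were most like this mean were *MAP1LC3A* (Pearson r 0.9975), *DDX43* (0.9974), *DAZL* (0.9972), *PSMA8* (0.9972) and *SALL2* (0.9971). The points are 4 untreated and 4 treated arrays, so r mostly records the step between them. *MAP1LC3A*, an autophagosome protein, rose by 5.10 in the knockdown clones, and *DDX43*, a cancer-testis RNA helicase, by 8.04. *SSX4B* stood at place 10 in this order (r 0.9968) and *SSX8* at place 1408 (r 0.8971).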

How the data were processed

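RNA of 8 cultures of HCT116 clones was labelled with Cy3 and hybridized to one-color Agilent arrays of 60-base probes. The authors deposited spot intensity values from Feature Extraction 10.7.3.1, already corrected for background and not normalized between arrays. The study's methods name GeneSpring GX and t tests with Benjamini-Hochberg correction. The deposited value table, an alternative here, holds the same intensity values, rounded.

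Each processed intensity was divided by its array's 75th percentile over the 58717 spots that are not controls, returned to the common scale, floored at 1 and put on the log2 scale. Spots marked as poor were left out and spots of a probe averaged, which left 50543 of 50599 probes complete. A probe was above background on an array where at least 0.5 of its spots were, and 27287 probes that were above it in both clones of any 1 condition were tested. limma 3.58.1 in R 4.3.3 (data.table, version 1.17.8) was fitted on all of these with Benjamini-Hochberg adjustment at 0.05, two-sided. Figures used matplotlib 3.10.9. The treatment effect was fitted on the 4 arrays of each kind of clone, the untreated difference on 4 arrays, and the difference in response as an interaction over 8.

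The genes and all lists were chosen with earlier results of these data known. Every probe of the members was reported, each member's level being that of its brightest probe. Added were *TET1*, other SSX and VCX genes, lists of partners, DNA methylation genes, male germ cell genes, neighbours within 500 kb and cell type markers, and the 5 genes with the highest Pearson r to the members' mean. Treated and untreated arrays of a clone share that clone by their titles, and their deviations correlated at 0.198 in control and 0.476 in knockdown clones. On simulated data over 27287 probes, 99% of changes of 4 log2 units were recovered in the knockdown clones (4.35% of calls false) and 94% in the difference in response (5.05% false). The fitted differences in response of the 10 probes ran from -0.99 to 1.74, and recovery of differences of that size was not simulated. Promoter sequences were RefSeq's on GRCh38.p14. Columns of other series numbered 0. The leukocyte marker list is not reported here beyond *CD3E*. The number of arrays limits the precision. Alternatives were other background corrections, scalings, filters, variances, blocks and left-out arrays.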

Additional observations from a re-analysis of the deposited data

How the results depend on the processing

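With most of the genes below background without drug, the size of a rise depends on how dim signals were treated. In the knockdown clones the 9 probes called became 7 with normexp or an offset of 50, 8 with spots marked as poor kept and 10 with all 8 arrays in 1 fit, and were 9 under quantile normalization, no filter, the authors' value table or a 2-fold minimum. With the clone as a replicate block they became 10 and the difference in response went from 0 to 1 (*SSX7* A_23_P396115). The methods' t-test called 0 in the knockdown clones. In the control clones the 10 became 5 with the t-test and 9 on the spike-in scale, where *SSX7* A_23_P396115 was lost (1.46, adjusted p 0.06061). The filter for probes above background on all arrays left 2 probes in each, of which 2 were called. Leaving out 1 array gave 7 to 9 in the knockdown clones and 8 to 10 in the control clones, and 0 for the difference, as did leaving out both arrays of a clone, an alternative chosen after seeing the data. The untreated difference stayed at 0 throughout. *SSX5* lost its knockdown call under normexp (0.75, limma adjusted p 0.0766) and the offset (0.81, adjusted p 0.06641), *SSX2* A_23_P252023 under the same (1.12, adjusted p 0.05206, and 1.09, adjusted p 0.0623), *SSX3* A_23_P114134 with spots marked as poor kept (5.14, adjusted p 0.06939) and *SSX3* A_33_P3396635 without untreated TET1-KD1 (2.93, adjusted p 0.05565). The cause was not tested. Over all probes, 1687 calls in the knockdown clones became 830 with normexp, 824 with the offset, 75 with the strict filter, 2548 with the block, 3220 with 8 arrays and 0 with the methods' t-test, and 885 to 1796 without 1 array. The control clones' 12601 became 7565 with a 2-fold minimum and 4166 with the t-test, and 4826 to 10307 without 1 array. Their split of 5911 higher and 6690 lower became 4589 and 9540 on the spike-in scale. The 1521 differences in response (1096 higher, 425 lower) became 829 (433 and 396) with normexp, 712 without the filter and 2510 (2176 and 334) on the spike-in scale, were 891 and 664 with the offset, ran from 47 to 1248 with 1 array left out, and were 0 with any 1 clone left out. No call changed direction.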
